A study of Mus musculus with 16 samples.

Results

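The comparison described here is between splenic AM14 B cells without and with TLR9 after 42 h with PL2-3. It uses 4 of the 16 arrays of the series, 1 for each genotype: TLR9 KO and TLR7 TLR9 KO lack TLR9, and WT and TLR7 KO carry it. All 4 genotypes carried the AM14 receptor, and all 4 of these cultures received PL2-3, so the groups differ from each other in Tlr7 and Tlr9 as labelled. The other 12 arrays are the same genotypes at 0, 6 and 24 h and are used only beside the 42 h values. RNA of each culture was labelled with Cy5 and hybridised against Cy3-labelled RNA pooled from unstimulated AM14 B cells of all genotypes. Each level below is therefore a log2 ratio to that pool, where 0 means the level of resting cells. The labels name no dose of PL2-3, no age or sex of the mice and no pooling.

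AM14 is a B cell receptor that binds IgG2a of the a allotype with low affinity, as a rheumatoid factor does. PL2-3 is a monoclonal IgG2a antibody against chromatin, and with chromatin from dying cells it forms immune complexes that the AM14 receptor binds and takes into endosomes. There TLR9 recognises DNA and TLR7 recognises RNA, and both signal through MyD88. The antigen receptor and the endosomal receptors can therefore both be engaged by one complex, and cells without TLR9 keep the antigen receptor signal while losing the DNA sensor.

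The genotypes make 2 matched pairs: TLR9 KO minus WT, in which both cultures have TLR7, and TLR7 TLR9 KO minus TLR7 KO, in which neither has it. A gene is called shared where both pairs differ by at least 2-fold in the same direction; this is a description with no test. A gene is called changed, higher or lower in a test where limma, fitted over 13811 autosomal genes on the 4 arrays, gave a Benjamini-Hochberg adjusted p under 0.05. With 1 array per genotype, 2 genotypes stand in for replicates of each arm, so these p-values measure the spread between genotypes, which may be technical. Genes on chromosomes X and Y, Tlr7 among them, were left out.

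Several properties of the arrays bear on every value. The arrays with TLR9 were on slide 1 and scan 1 and those without on slide 2 and scan 2, so slide and TLR9 cannot be told apart at 42 h. The 0 h arrays of each genotype lie on the same slides. There 3 of 13761 genes were 2-fold apart in both pairs, 1 higher without TLR9 (0.00727%) and 2 lower (0.0145%). None of them were among those shared at 42 h. The TLR9 KO array at 0 h had the lowest share of spots well above background in Cy5 of the 16 arrays, 37.4%. On it 5721 of 23864 spots bright in the pool elsewhere were not well above background. The pool is itself of unstimulated cells, so the 0 h ratios do not cover genes that PL2-3 changes. The WT array at 42 h has a round dim area holding 15.8% of its spots, in which the reference colour itself is dim by a median of 1.5 on the log2 scale. The other 42 h arrays have no such area, and 16.6% of the genes tested have their spot in it. In Cy5, 40.9% of spots were well above background on the WT array, 62.7% on TLR7 KO, 53.0% on TLR9 KO and 51.5% on TLR7 TLR9 KO. The number of arrays limits the precision.

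The array labelled TLR9 KO 42 h also stands apart in time order. The median level of 33 genes of mitosis went from 1.94 at 24 h to 3.31 at 42 h in WT, from 1.82 to 3.57 in TLR7 KO and from 0.56 to 2.68 in TLR7 TLR9 KO. In TLR9 KO it went the other way, from 3.26 on the array labelled 24 h to 0.84 on the array labelled 42 h. Across 13739 genes the TLR9 KO 42 h array had a Pearson correlation of 0.944 with TLR7 TLR9 KO at 24 h and of 0.879 with its own genotype at 24 h, as a description over genes measured against the same pool. The TLR9 KO array labelled 24 h had correlations of 0.907 with TLR7 KO and 0.867 with WT at 42 h. For the array labelled 42 h these were 0.761 and 0.725. Whether these labels were exchanged was not tested. The labels were kept as deposited, and the total and the list counts are also given without the array labelled 42 h. The shared genes and the values of the TLR9 KO pair need that array and are given only with it.

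The array does not register the Tlr9 knockout. Its Tlr9 probe, at chr9:106128979-106129038 of mm9, read -0.57 in WT, -0.54 in TLR7 KO, -0.37 in TLR9 KO and -0.44 in TLR7 TLR9 KO. The difference of 0.15 ± 0.11 (SE) was not called (limma adjusted p = 0.49), and an exact two-sided permutation test gave p = 0.333, the smallest that 2 against 2 arrays allow. Whether this probe lies in the deleted part of the gene is not given in the sources used here, so it does not check the labels. Of the 80 genes nearest to Tlr9, 40 on each side, 61 were tested, 5 were called (8.2%) and 0 were shared at 42 h.

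In the 42 h comparison 1139 genes (8.25% of those tested) were called, 555 higher without TLR9 (4.02%) and 584 lower (4.23%). Of the lower genes 22 were above background in Cy5 on neither array without TLR9, and of the higher 11 on neither array with it. The calls of these genes rest on a signal at background in 1 arm. For each gene list below, the shares over all genes are 4.02% higher and 4.23% lower. The shared genes numbered 483 (3.5%), 205 higher without TLR9 (1.48%) and 278 lower (2.01%), and 427 of them were also called. All 1139 called genes had arms that did not overlap, which held for 57.1% of all genes tested (27.5% higher and 29.6% lower). TLR9 KO minus WT reached 2-fold in 951 genes (6.89%), 310 higher (2.24%) and 641 lower (4.64%). TLR7 TLR9 KO minus TLR7 KO reached it in 809 (5.86%), 447 higher (3.24%) and 362 lower (2.62%). The cultures that differ only in TLR7 were closer: 188 genes (1.36%) differed 2-fold between WT and TLR7 KO, of which 160 lie in the dim area, and 295 (2.14%) between TLR9 KO and TLR7 TLR9 KO.

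The counts depend on the processing more than the directions do. With the scanner's processed signals in place of the corrected mean signals, 61 genes were called, and with median centring 943, of which 22.0% were higher without TLR9 in place of 48.7%. Median centring moved the median of all genes from -0.01 to -0.15. Every one of the 1139 genes kept its sign under both. Without the array labelled TLR9 KO 42 h 1171 genes were called, 813 of them among the 1139, and with the dim area left out 1539 were called among 11694, including all 1028 of the main calls that could still be measured. Without the WT array 186 genes were called and without TLR7 KO 224. With processed signals none of the 24 gene lists described below had more than 3 members called, and without the WT array none had more than 10.

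**Figure D1:**
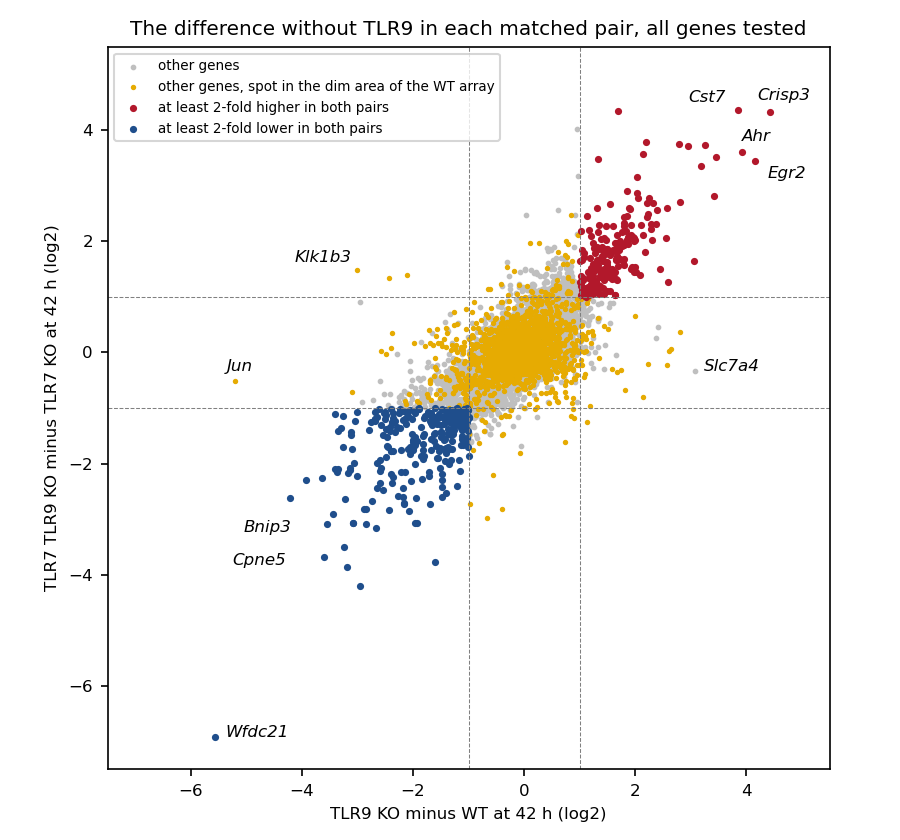
Each point is 1 of 13811 genes, with the log2 difference TLR9 KO minus WT on the x axis and TLR7 TLR9 KO minus TLR7 KO on the y axis at 42 h, and dashed lines at 2-fold. The 205 red and 278 blue genes are 2-fold apart in both pairs. Yellow genes are others whose spot lies in the dim area of the WT array. They include Jun and Klk1b3, which lie far from 0 in the TLR9 KO pair. Klk1b3 also differs in the other pair, by 1.48.

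The genes with the widest gap above the cultures with TLR9 include regulators of transcription that stimulated B cells induce. Egr2, a zinc finger factor induced by antigen receptor signalling, stood at 1.58 in WT and 1.95 in TLR7 KO against 5.74 in TLR9 KO and 5.39 in TLR7 TLR9 KO. Its difference was 3.80 ± 0.19 (SE), or 13.9-fold (limma adjusted p = 0.00256). Ahr, the ligand-activated aryl hydrocarbon receptor, read 0.94, 1.17, 4.86 and 4.78 in the same order, a difference of 3.77 ± 0.13. A second Ahr probe gave 0.45, so the size for Ahr depends on the probe. Egr1, an immediate early factor, read -0.54, -0.23, 2.27 and 2.48 and rose by 2.76 ± 0.16 (limma adjusted p = 0.00309).

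Other genes of the higher group encode secreted or membrane proteins. Crisp3, a cysteine-rich secretory protein with its probe at chr17:40358752-40358811 of mm9, had the largest rise. It was below the pool with TLR9, at -1.74 in WT and -1.81 in TLR7 KO, and above it without, at 2.69 in TLR9 KO and 2.52 in TLR7 TLR9 KO. That difference of 4.38 ± 0.13 is 20.8-fold (limma adjusted p = 0.00244). Cst7, the cathepsin inhibitor cystatin F, was above the pool in all 4 cultures, at 1.14, 1.36, 4.99 and 5.73, and rose 17.3-fold. Lilrb4a, an inhibitory receptor with ITIM motifs, read 0.11, 0.26, 3.56 and 3.78 and rose 11.2-fold. Csf1, the macrophage growth factor, read -0.36, -0.42, 2.89 and 3.31, and its spot lies in the dim area of the WT array.

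The remaining genes of that group have varied roles. Rcan1, an inhibitor of calcineurin, read -0.64 and -0.33 with TLR9 and 2.16 and 3.42 without, a rise of 3.27 ± 0.41 (limma adjusted p = 0.0163). Its 2 cultures without TLR9 lie further apart than those of the other genes named here as higher. Marcks, a membrane-bound protein kinase C substrate, read -1.47, -1.06, 1.71 and 2.30. The calmodulin-binding Pcp4 read -1.54, -1.83, 1.41 and 1.89, and the centrosomal Tacc2 0.66, 1.45, 4.09 and 4.26. Ephx1, a microsomal epoxide hydrolase, rose by 2.48, with both of its probes above 2. The rise of Smo, the Hedgehog signal transducer, was 2.51 on the probe used and -0.24 on another, and that of Pign, an enzyme of GPI anchor synthesis, 2.35 and -0.17, so these are uncertain.

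The gene with the largest fall was Wfdc21, which encodes a small secreted protein with a WAP domain. It read 1.48 in WT, 1.90 in TLR7 KO, -4.08 in TLR9 KO and -5.02 in TLR7 TLR9 KO, a 75.7-fold difference (-6.24 ± 0.33 on the log2 scale). Its spot lies in the dim area of the WT array, but the TLR7 TLR9 KO pair, which does not use that array, differed by -6.92. Unlike most of the group it was already apart earlier, by -0.04 at 0 h, -3.79 at 6 h and -4.10 at 24 h.

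Genes of the cell surface and of secretion fell as well. Ly6d, a GPI-anchored surface protein of the B lineage, read -0.21, 0.14, -3.17 and -4.06. Cd5l, a secreted protein that binds IgM, read 2.76, 2.47, -0.68 and -0.44. Dpp4, the surface peptidase CD26, read 1.57, 1.5, -1.66 and -1.13. Cdh17, a cadherin, was not well above background on either array without TLR9 and read 2.65, 2.55, -0.43 and -0.51, so its fold of 8.41 is measured against a signal at background.

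The other genes that fell have varied roles. Gfi1b, a zinc finger repressor best known from red cell and platelet precursors, read 3.10, 3.52, -0.09 and -0.33. Cpne5, a calcium-dependent phospholipid-binding protein, read 1.67, 1.43, -1.93 and -2.25. Nedd4, a ubiquitin ligase, read 0.06, -0.12, -2.82 and -2.94, near the pool with TLR9 and below it without, as Ly6d was. Grhpr, the glyoxylate reductase, fell by 2.70. Hgfac, the activator of hepatocyte growth factor, fell by 2.97, and the kallikrein protease Klk4, in the dim area of the WT array, by 3.07.

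**Figure D2:**
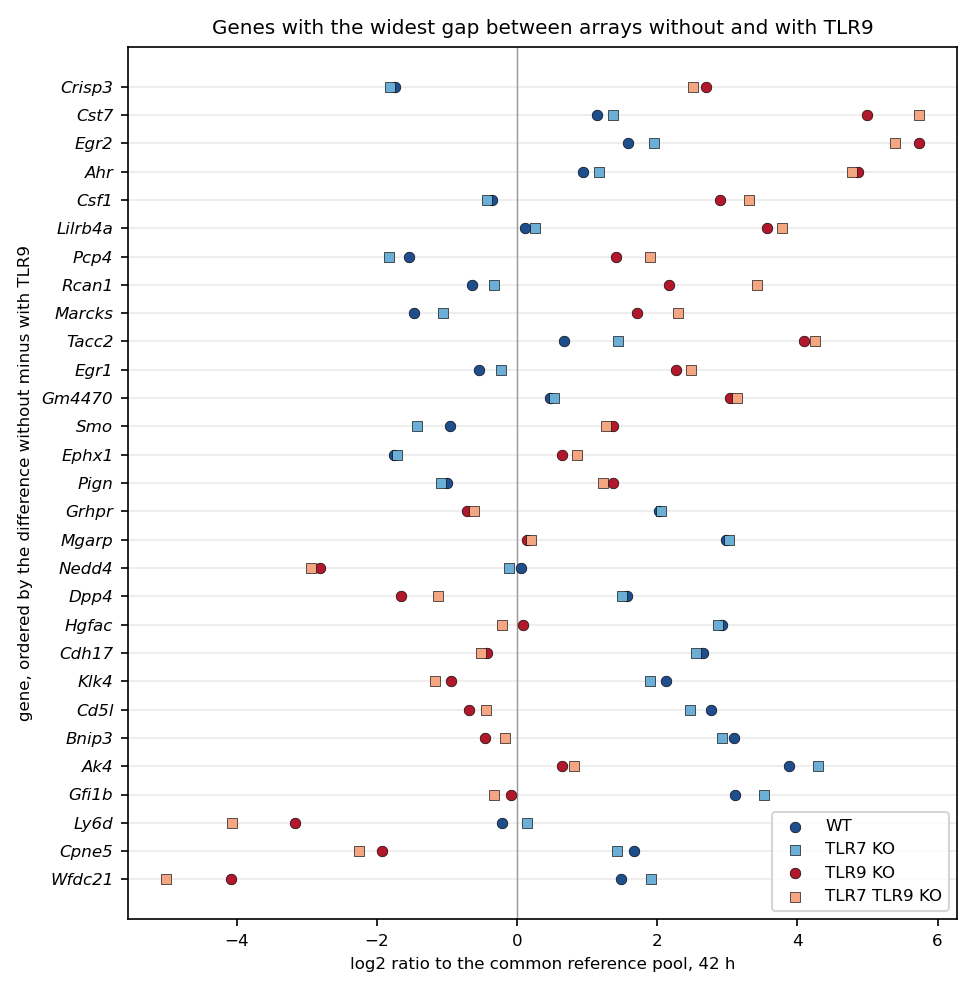
Log2 ratio to the pool at 42 h (x axis) for called genes with the widest gap in each direction (y axis), with 1 point for each of the 4 arrays. For all genes drawn both arrays without TLR9 lie on one side of both arrays with it, from Crisp3, with a difference of 4.38, to Wfdc21, at -6.24.

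Glycolysis and the hypoxia response moved as a group. The hypoxia-inducible factor HIF-1, which prolyl hydroxylases mark for degradation when oxygen is present, binds promoters at ACGTG and drives glucose uptake, glycolysis and the conversion of pyruvate to lactate. Activated lymphocytes raise the same enzymes as they grow. Of 31 genes tested 21 were called lower without TLR9 (4.23% of all genes) and 0 higher, and 18 were lower 2-fold in both pairs. The median difference was -1.18 against -0.01 over all genes tested, and the pair medians were -1.20 and -1.18.

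The glycolytic enzymes fell together. Ldha, which makes lactate, read 3.42 in WT, 3.43 in TLR7 KO, 1.25 in TLR9 KO and 0.99 in TLR7 TLR9 KO, a difference of -2.31 ± 0.14 (limma adjusted p = 0.00324). Tpi1, triosephosphate isomerase, read 3.55, 3.65, 1.16 and 1.30. The fall was 1.87 for Pkm, 1.71 for Eno1, 1.40 for Aldoa and 1.37 for Gapdh. These cultures remained above the pool for Ldha and Tpi1, so the difference is one of extent. Slc16a3, the lactate exporter MCT4, read 4.09, 4.02, -0.12 and 1.40 and fell by 3.42 ± 0.48, and the glucose transporter Slc2a1 fell by 1.21.

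The HIF-1 targets outside glycolysis separated the arms as far. Bnip3, a mitophagy receptor, read 3.09, 2.92, -0.45 and -0.17, a 9.96-fold difference (its other probes fell less, the least by 0.76). Pdk1, which keeps pyruvate out of the mitochondrion, read 2.23, 2.07, -0.36 and -0.01. Ak4, a mitochondrial adenylate kinase, read 3.88, 4.30, 0.64 and 0.81, with a second probe at -0.67. Egln3, the prolyl hydroxylase that HIF itself induces, read 2.06, 2.75, -0.02 and -0.11, and Mgarp, a mitochondrial protein, 2.98, 3.02, 0.13 and 0.20. Both were tested only because they were well above background on the arrays with TLR9. They were not well above background on the arrays without it, so their lower level there is not measured.

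Some members did not follow. Hif1a itself differed by 0.56 ± 0.22 (limma adjusted p = 0.191), and the values of Hk2 (-0.78), Pfkfb3 (-0.20) and Car9 (0.01) did not pass the test. With processed signals 3 of the 31 members were called and without the WT array 10; without the array labelled TLR9 KO 42 h 20 were called lower and 1 higher.

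The promoters of 4 of the called genes show where the HIF-1 core letters ACGTG occur. Each is the 250 bases before the gene's RefSeq start on GRCm38.p6, read 5′ to 3′ on the gene's strand, with ACGTG on either strand in capitals. They are Bnip3 at chr7:138909507-138909756 (minus strand), Ldha at chr7:46845554-46845803 (plus strand), Egln3 at chr12:54203875-54204124 (minus strand) and Mgarp at chr3:51396548-51396797 (minus strand).
Bnip3: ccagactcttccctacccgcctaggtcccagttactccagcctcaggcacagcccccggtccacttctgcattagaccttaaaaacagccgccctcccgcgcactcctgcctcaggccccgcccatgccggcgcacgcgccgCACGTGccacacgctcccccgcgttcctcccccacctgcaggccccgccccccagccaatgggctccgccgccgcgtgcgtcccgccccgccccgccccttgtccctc
Ldha: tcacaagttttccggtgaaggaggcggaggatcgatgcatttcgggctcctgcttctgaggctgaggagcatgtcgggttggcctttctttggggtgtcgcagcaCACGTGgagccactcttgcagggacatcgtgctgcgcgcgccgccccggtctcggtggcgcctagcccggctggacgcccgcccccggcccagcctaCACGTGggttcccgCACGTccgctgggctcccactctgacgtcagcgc
Egln3: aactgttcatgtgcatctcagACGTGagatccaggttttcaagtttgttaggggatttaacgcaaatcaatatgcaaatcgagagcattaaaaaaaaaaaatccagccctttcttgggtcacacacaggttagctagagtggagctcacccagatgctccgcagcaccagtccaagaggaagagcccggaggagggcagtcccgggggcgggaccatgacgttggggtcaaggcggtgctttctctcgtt
Mgarp: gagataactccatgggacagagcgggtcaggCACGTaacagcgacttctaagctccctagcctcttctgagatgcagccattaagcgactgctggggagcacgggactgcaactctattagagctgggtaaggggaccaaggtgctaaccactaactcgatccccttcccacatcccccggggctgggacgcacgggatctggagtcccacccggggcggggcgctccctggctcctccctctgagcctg
Bnip3 has 2 matches, both within 1 CACGTG, which is also the E-box that MYC and USF bind; Ldha has 5, Egln3 has 1 and Mgarp has 1. ACGTG was found in 16 of the 30 list members with a promoter in the table (53.3%), 10 of the 21 called ones (47.6%), 21.1% of 10858 promoters of genes tested and 16.6% of all 27025. Outside CACGTG the share was 46.7% of the list and 14.3% of genes tested. Among all shared genes any ACGTG was found in 23.4% of those lower without TLR9 and 20.8% of those higher. Outside CACGTG these shares were 18.7% and 13.2%. A match is a description of these letters and not a site, and the list holds genes known for HIF-1 control.

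Lipid synthesis was lower to a smaller extent. Of 30 genes of cholesterol and fatty acid synthesis, which SREBP factors induce when cells build membrane, 14 were called lower and 0 higher. Over all genes 4.23% were called lower and 2.01% were shared as lower. The list had a median of -0.64 and 5 shared genes. Scd2, which makes monounsaturated fatty acids, read 4.91, 4.87, 2.44 and 3.18 and fell by 2.08. Lanosterol synthase, Lss, fell by 1.42 and the elongase Elovl6 by 1.33. Fads2, a desaturase, differed by -1.61 and did not pass the test (limma adjusted p = 0.186), with its spot in the dim area. With processed signals 0 of the 30 were called, without the WT array 1, and without the array labelled TLR9 KO 42 h 11.

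Early genes of the antigen receptor went the opposite way. These are immediate early transcription factors and feedback phosphatases that calcium and MAP kinase signals induce within hours and that then decay. Of 23 tested 9 were called higher without TLR9 (4.02% of all genes) and 0 lower, with a median of 0.45 and 6 shared. Besides Egr1 and Egr2, the orphan nuclear receptor Nr4a2 read 0.70, 0.67, 2.92 and 3.16 and rose by 2.36 ± 0.13, and Nr4a1 (Nur77) read 0.26, 0.47, 1.64 and 2.52. Dusp2, which removes phosphate from MAP kinases, read -2.38, -2.23, -0.09 and 0.00: it was under the pool with TLR9 and level with it without. Myc rose by 1.12, the Egr corepressor Nab2 by 0.99 and Egr3 by 0.67. Fosl2, not well above background with TLR9, was called at 0.90 on the probe used and gave 0.11 on another. Jun, at -2.86, was not called; on the WT array both its sample and its reference signal were 49, while the reference read 22859 to 29976 on the other 3 arrays. With processed signals 3 members were called, and with median centring 5 were higher and 1 lower. Without the array labelled TLR9 KO 42 h 9 were higher and 1 lower.

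Antigen presentation by MHC class II had a small and even difference. Of 15 genes 7 were called higher without TLR9 (4.02% of all genes) and 0 lower, with a median of 0.59. Cd74, the invariant chain, read -1.47 in WT, -1.67 in TLR7 KO, -0.46 in TLR9 KO and -0.80 in TLR7 TLR9 KO, so all 4 cultures were below resting cells and those with TLR9 further below. The same held in size for the class II chains H2-Ea (0.93), H2-Aa (0.76), H2-Eb1 (0.71) and H2-Ab1 (0.70). H2-DMa, part of the peptide exchange factor, differed by -0.49 and Ciita, the class II activator, by 0.41, neither called. The calls ended under median centring, with a median of 0.25 and 0 called, and with processed signals, also with 0, while 2 were called without the array labelled TLR9 KO 42 h.

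Genes of mature B cell identity moved in both directions, with 5 of 27 higher and 2 lower (4.02% and 4.23% of all genes). Their median of 0.09 turned to -0.26 under median centring. The IgM receptor Fcmr rose by 1.72, the complement receptor Cr2 by 1.34 and CD23, Fcer2a, by 1.1. The trafficking factor Klf2 fell by 1.40 and the coactivator Pou2af1 by 1.02. The B cell gene Ms4a1 (CD20) differed by 0.41 and was not called. Of 18 genes of marginal zone and B-1 cells 4 were higher, among them Cr2 and S1pr3 (1.77), and 5 lower, among them Plac8 (-2.18), the scavenger receptor Cd36 (-1.99), Anxa2 (-1.84) and Spn (CD43, -1.03). Without the array labelled TLR9 KO 42 h the mature B cell list had 4 higher and 3 lower and the marginal zone list 5 and 5.

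Activation receptors and cytokines split by gene. In the NF-kB list 5 of 26 were higher and 2 lower, against 4.02% and 4.23% of all genes. Its median of 0.12 was -0.02 under median centring. Il2ra, the interleukin 2 receptor alpha chain, read 0.91, 0.43, 2.76 and 2.89 and rose by 2.15, and the inhibitor Nfkbie rose by 1.28, while the atypical inhibitor Bcl3 (by 1.51, dim area) and Ebi3 (by 1.37) fell. Relb rose by 1.27 on the probe used, with another at -0.04. Il6, a cytokine of activated B cells, read 1.89, 1.99, 0.46 and 0.04 and fell by 1.69, the chemokine Ccl5 fell by 1.63 and Ltb, which organises lymphoid tissue, by 1.18. Il18 rose by 1.09 and Tgfb1 by 0.63 (dim area). In all, 3 of 19 cytokine genes were higher and 4 lower, with a median of 0.04 that was -0.08 under median centring. Among inhibitory receptors 4 of 22 were higher and 1 lower: Pdcd1 (PD-1) read 2.92, 3.22, 4.90 and 5.22, and Cd5 rose by 1.45 and Cd72 by 1.34, beside Lilrb4a. Without the array labelled TLR9 KO 42 h the NF-kB list had 5 higher and 3 lower, the cytokines 2 and 5, and the inhibitory receptors 7 and 1.

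Of the 19 genes listed for class switching and atypical B cells 3 were higher, among them the signal transducer Stat6 (0.87) and the uracil glycosylase Ung (0.75), and 2 lower, among them the mismatch repair gene Msh6 (-0.71); without the array labelled TLR9 KO 42 h 3 were higher and 3 lower.

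Plasma cell and secretory genes were lower for part of their lists. In the plasma cell list 1 of 19 was higher and 3 lower, against 4.02% and 4.23% of all genes. Irf4, which sets the plasma cell program at high level, read 0.21, 0.17, 1.28 and 1.30 and rose by 1.1. Derl3, of endoplasmic reticulum degradation, read 3.83, 3.42, -0.10 and 1.13 and fell by 3.11, Eaf2 fell by 1.81, and Mzb1, an antibody folding cofactor in the dim area, by 1.74. The factor Xbp1, at -0.59, did not pass the test (limma adjusted p = 0.0971). Jchain (0.72), Slamf7 (0.69) and Sdc1 (0.55) differed upward and were not called either. The median of the plasma cell list was -0.45. Of 24 genes of the endoplasmic reticulum 6 were lower and 0 higher (median -0.53), among them Creld2 (-1.05, dim area) and Pdia6 (-0.97). Of the endoplasmic reticulum genes 0 were called with processed signals, after subtraction of each genotype's 0 h array, without WT and without TLR7 KO, 12 with median centring and 7 without the array labelled TLR9 KO 42 h. Without that array the plasma cell list had 3 higher and 4 lower, and with TLR7 genotype as a term 3 and 5.

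The amino acid response, which ATF4 drives when uncharged tRNA or unfolded protein builds up, had 8 of 31 genes lower and 1 higher. Over all genes these shares were 4.23% and 4.02%. Trib3 read 2.83, 2.92, 0.90 and 0.30 and fell by 2.28, Chac1 fell by 1.97, the serine enzyme Psat1 by 1.21, asparagine synthetase, Asns, by 1.19 and Atf4 itself by 0.57. The amino acid transporter Slc38a2 rose by 0.87. The lower genes numbered 0 with processed signals, 1 after subtraction of 0 h, 2 without WT, 1 without TLR7 KO and 7 without the array labelled TLR9 KO 42 h.

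The cell cycle genes were lower in both pairs but by unequal amounts. Of 33 mitosis genes 3 were called lower and 0 higher although the median was -1.64, the lowest of the lists. The pair medians were -2.38 for TLR9 KO and -0.98 for TLR7 TLR9 KO, and 14 genes were shared. Mki67, a marker of cycling cells, read 4.54 in WT, 4.52 in TLR7 KO, 1.13 in TLR9 KO and 3.41 in TLR7 TLR9 KO, so the 2 cultures without TLR9 lay far apart. Its difference of -2.26 ± 0.71 did not pass the test (limma adjusted p = 0.12). The kinesin Cenpe (-2.30), the kinase Aurka (-1.99) and Cdc20 (-1.93), which activates the anaphase-promoting complex, were called. Without the array labelled TLR9 KO 42 h the median was -0.86 with 17 called, without TLR7 TLR9 KO it was -2.48 with 30 called, and with TLR7 genotype as a term, which compares the cultures within each matched pair, 17 were called. Without WT or without TLR7 KO 0 were called. Of 33 DNA replication genes 1, Rfc4, was called lower on the probe used, with another probe at 0.33, and the list's pair medians were -1.07 and -0.38; with TLR7 genotype as a term 6 were called, without TLR7 TLR9 KO 24 and without the array labelled TLR9 KO 42 h 2. Cdkn1a, the p21 inhibitor of cyclin-dependent kinases, read 2.39, 2.0, -0.26 and 0.02 and fell by 2.32, with its other measured probe at -0.09. In cultures of many cells, fewer cells of a kind and less RNA per cell cannot be told apart.

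Other pathways had shares of calls near that of all genes. Of 34 interferon-stimulated genes 2 were lower, Oas2 (-1.20) and Parp14 (-0.66), and 0 higher. In the TLR pathway itself 1 of 24 was higher and 0 lower. The list of MYC targets holds genes of ribosome and nucleotide synthesis, and also Myc itself (1.12) and Ldha. Of its 29 genes 2 were higher and 1, Ldha (-2.31), was lower. Its median was 0.11, and -0.20 under median centring. Of 31 genes of oxidative phosphorylation and the citric acid cycle 0 were called (limma; 9 had an unadjusted p under 0.05), with a median of -0.26, and under median centring 5 were lower. Of 27 apoptosis genes 1 was lower and 0 higher. Leaving out the array labelled TLR9 KO 42 h, the TLR pathway had 5 higher, the interferon-stimulated genes 1 higher and 2 lower, the apoptosis genes 1 and 1, oxidative phosphorylation 0 of either, and the MYC targets 2 and 1 with a median of -0.05.

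**Figure D3:**
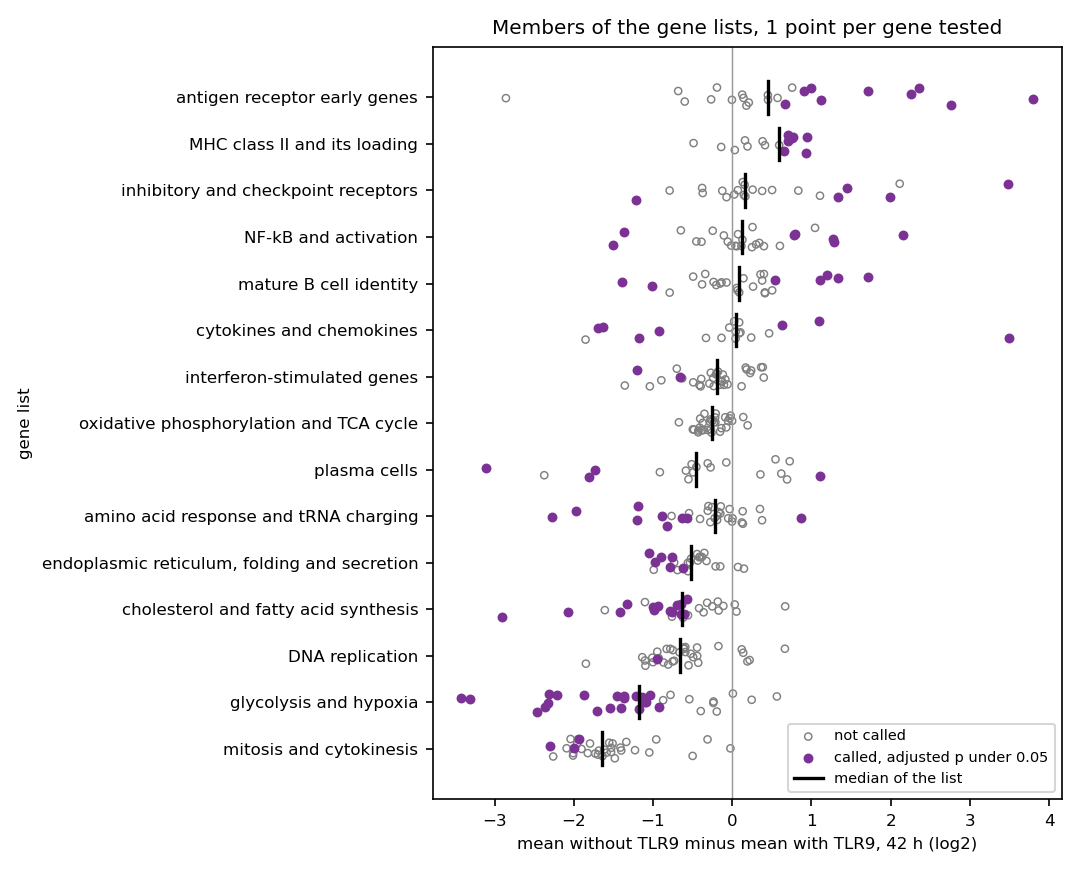
Mean without minus mean with TLR9 at 42 h (x axis, log2) for each gene tested in 15 of the 24 gene lists (y axis), with called genes filled and the list median as a bar. The glycolysis and hypoxia list has 21 of 31 genes called lower, the antigen receptor list 9 of 23 called higher, and the mitosis list the lowest median (-1.64) with 3 called.

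Markers of other cell types were read for the same arrays. Of 15 T cell markers Cd5 and Zap70 (1.44) were higher and Il7r (-1.18) lower, while the defining Cd3e differed by -0.18 and Cd4 by -0.57, and the list's median level lay between -0.34 and -0.19 with TLR9 and between -0.24 and -0.20 without. Of 18 myeloid markers Itgam was called higher (1.62, dim area), with another probe at 0.01, and 0 were higher with the mean of the probes of a gene. Cd5l (-3.18), described above and also a product of macrophages, was lower. Cd68 differed by 0.80, Adgre1 (F4/80) by 0.50 and Lyz2 by -0.54, none called, and the median levels were -1.64 and -1.27 with TLR9 and -1.76 and -1.59 without. Of 13 markers of NK and plasmacytoid cells the chemokine Xcl1 (1.74), Tcf4 (1.54) and Siglech (0.63) were higher and Il2rb (-1.04) lower, with Ncr1 at -0.19. Of 15 erythroid markers 1, Hemgn (0.76), was called higher, and the list stood at -1.50 and -1.45 with TLR9 and at -1.15 and -0.94 without. The globin genes Hbb-bs (1.44), Hba-a1 (1.04), Hbb-b2 (0.99), Hba-a2 (0.95) and Hbb-bt (0.55) differed upward and Tfrc (-0.52) downward, none called. Hbb-bs differed by 2.41 in the TLR9 KO pair and by 0.47 in the other. With the array labelled TLR9 KO 42 h left out, the T cell markers had 3 higher and 1 lower, the myeloid 2 and 2, the NK and plasmacytoid 2 and 1 and the erythroid 1 and 0. The part of these cells in the results above was not tested.

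Some differences belonged to 1 pair only, meaning 2-fold there and under 0.5 in the other; they were not tested. In the TLR9 KO pair 47 genes were higher, 28 of them with a spot in the dim area of the WT array, and 147 lower, 61 of them there. In the TLR7 TLR9 KO pair 85 were higher, 19 of them there, and 22 lower, 10 of them there. Slc7a4, a transporter-like protein, read -0.98, -1.17, 2.10 and -1.50, so the TLR9 KO array alone was high. The mitotic genes Oip5 (2.81, 2.56, 0.76 and 2.22) and Ncapg2 (3.34, 3.32, 1.32 and 2.82) were low on that array alone. The costimulatory receptor Tnfrsf4 (OX40) read 0.12, -0.12, 0.58 and 1.74 and the homeobox factor Lhx2 0.30, 0.57, 0.73 and 2.39, both high in TLR7 TLR9 KO alone. Icosl, the ligand of ICOS, read -2.91, -3.0, -2.97 and -4.68, and Bcat1, which starts branched-chain amino acid breakdown, 2.89, 3.08, 2.69 and 1.75, both low in that culture alone. Arl2bp, at 0.03 and 2.47 in the pairs, owes its gap to the TLR7 KO array, at -2.39 against 0.08 to 0.21 on the others, and another probe gave -0.12.

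The earlier arrays place these differences in time. Of the 483 shared genes 0 were shared in the same direction at 0 h, 32 at 6 h (15 higher and 17 lower) and 26 at 24 h (12 higher and 14 lower), and a further 3 and 2 were apart in the opposite direction at 6 and 24 h. Over all genes the counts were 3, 141 and 46 (0.0218%, 1.02% and 0.333%), with 0.485% higher and 0.536% lower at 6 h and 0.188% and 0.145% at 24 h. The median difference of the 205 shared higher genes was 0.02 at 0 h, 0.49 at 6 h, 0.71 at 24 h and 1.63 at 42 h. That of the 278 lower genes was -0.05, -0.01, -0.20 and -1.64. The 42 h values chose these genes and are given as a description.

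The named genes took different courses to the same gap. Egr2 was far above the pool in every genotype at 6 h, between 5.03 and 5.49, and at 24 h read 4.44 in WT, 4.60 in TLR7 KO, 4.35 in TLR9 KO and 5.91 in TLR7 TLR9 KO. The cultures with TLR9 were then at 1.58 and 1.95 at 42 h, while those without were near their 6 h level. The array labelled TLR9 KO 24 h, at 4.35, lay below the 6 h and the 42 h values of that genotype. Ahr and Lilrb4a were also high in every genotype at 6 h, from 4.54 to 5.67 and from 4.35 to 4.88. Bnip3 stood between -0.51 and -0.09 at 6 h in all genotypes. At 42 h the cultures without TLR9 were near the pool while those with it were at 3.09 and 2.92. Ldha was level at 6 h, from 2.48 to 2.59, and at 24 h was low in TLR7 TLR9 KO alone, at 0.91 against 2.35 to 2.62. At 24 h the array labelled TLR9 KO read 1.12 for Bnip3 and 2.62 for Ldha, both above its own 42 h values. Crisp3 was under the pool in all genotypes at 6 h, from -1.80 to -1.29, and at 24 h read 0.61 in TLR9 KO and 3.25 in TLR7 TLR9 KO.

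**Figure D4:**
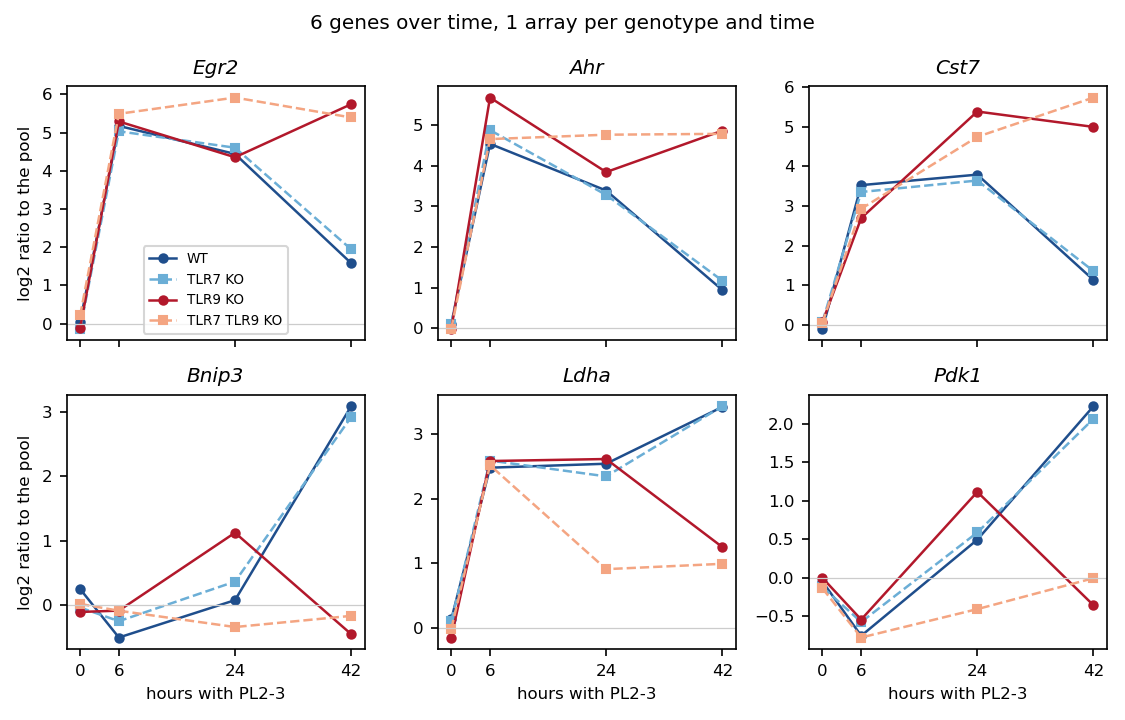
Log2 ratio to the pool (y axis) against hours with PL2-3 (x axis) for 6 genes, with 1 array per point and a line per genotype. Egr2, Ahr and Cst7 were up in every genotype at 6 h and lower with TLR9 at 42 h, while Bnip3, Ldha and Pdk1 were higher with TLR9 at 42 h.

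**Figure D5:**
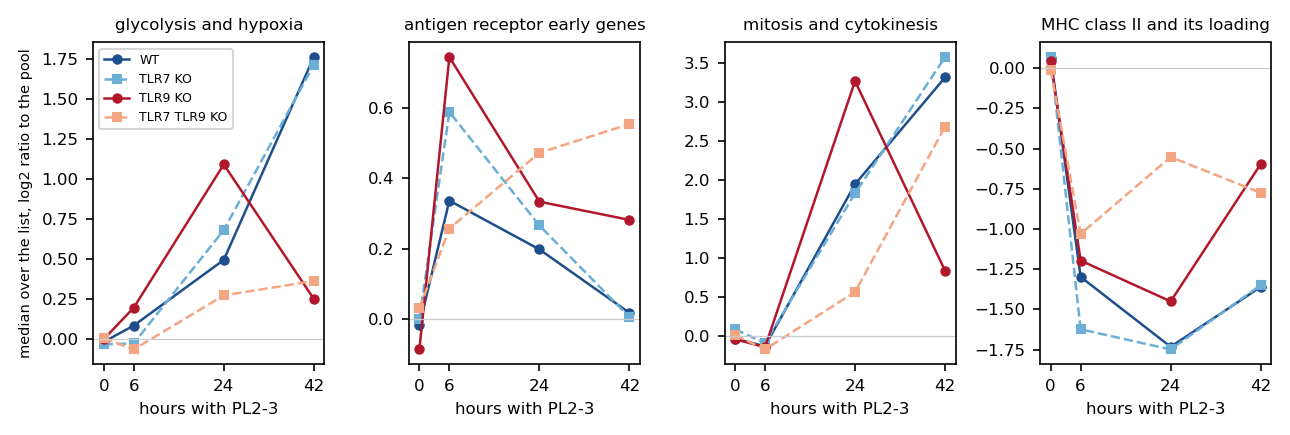
Median log2 ratio to the pool over the members of 4 gene lists (y axis) against hours with PL2-3 (x axis), with a line per genotype and 1 array per point. Glycolysis and hypoxia reached 1.76 in WT and 1.71 in TLR7 KO at 42 h against 0.25 in TLR9 KO and 0.36 in TLR7 TLR9 KO, and mitosis went from 3.26 to 0.84 between the 24 and 42 h arrays of TLR9 KO while it went up in the other 3 genotypes.

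The lists describe the same order. Glycolysis and hypoxia stood between -0.06 and 0.20 in all genotypes at 6 h, and at 24 h at 0.49 in WT, 0.68 in TLR7 KO, 1.09 in TLR9 KO and 0.27 in TLR7 TLR9 KO. MHC class II was below the pool in all genotypes from 6 h, and at 42 h was at -1.36, -1.35, -0.60 and -0.77. The interferon-stimulated genes were at -1.20 to -1.05 at 6 h in WT, TLR7 KO and TLR9 KO and at 0.48 in TLR7 TLR9 KO, a value of a single array. At 42 h they lay between -0.55 and -0.07 in all genotypes.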

How the data were processed

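The comparison, its members and its gene lists were chosen with earlier results of these data known. The arrays are 2-colour Agilent arrays, read with Feature Extraction 10.1.1.1 per the file headers, and deposited with mean, background and processed signal intensity per spot. The authors' deposited series table holds the log10 ratio of the processed signals. The mean intensities were corrected with normexp (offset 50) and loess in limma 3.58.1 (R 4.3.3). Control spots were left out. Of 55681 probes 27235 were named by accession, 3581 by symbol and 565 by an older symbol, and 24300 were unnamed. Probe coordinates are mm9, per the file headers; RefSeq GRCm38.p6 gave names, chromosomes and promoters only.

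Each gene took its brightest probe, and Cy5 had to be well above background on at least 2 of the 4 arrays at 42 h, so genes high in 1 arm could pass through it. This left 13817 of 21409 autosomal genes, 6 of them without a value on an array. The design was the mean without minus the mean with TLR9, tested with lmFit and eBayes, and the script was tested on simulated data. Genes were named by the 15 widest gaps in each direction, up to 5 members with the largest difference plus textbook members of each list, and the 8 largest differences of 1 pair only; unnamed gene models were left out. The dim area was found where at least 25% of bright pool spots in a window had lost 2-fold in Cy3. A few genes that the rule names are not reported here.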

Additional observations from a re-analysis of the deposited data

Results flagged for a closer look

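In 4 genes the matched pairs moved at least 2-fold in opposite directions, a difference that was not tested. TLR9 KO minus WT against TLR7 TLR9 KO minus TLR7 KO was -3.0 and 1.48 for Klk1b3 and -2.11 and 1.39 for Klk1, both kallikrein proteases, -2.43 and 1.33 for D13Ertd608e, and 1.13 and -1.26 for Cdca2, a chromosome-associated phosphatase subunit of dividing cells. All 4 have a spot in the dim area of the WT array. The reference pool read 39 for Klk1b3, 66 for Klk1 and 43 for D13Ertd608e on the WT array against at least 2552, 1941 and 1657 on the others. For Cdca2 it read 38 against 84 to 110.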

How the results depend on the processing

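The labels carry no replicate numbers; the paired fit over the 2 matched pairs, with TLR7 genotype as a term, called 1319 genes, 1040 of the 1139 among them. Leaving out the dim area, and the list medians under leave-one-out, were chosen after seeing the data. Against 1139 genes called (555 higher, 584 lower without TLR9), processed signals and the authors' series table each gave 61 (36 and 25), median centring 207 higher, subtraction of each genotype's 0 h array 357 (184 and 173), and all 16 arrays together 1861 (894 and 967). Leaving out 1 array gave 186 (without WT) to 1452 (without TLR7 TLR9 KO), with 90 to 659 higher and 96 to 904 lower. The cause was not tested. The 483 shared genes (205 and 278) became 933 (462 and 471) with processed signals, 932 (461 and 471) in the series table, 1273 (566 and 707) at 1.5-fold and 154 (72 and 82) at 3-fold, and 501 were lower with median centring. The glycolysis median moved to -1.37 with processed signals and in the series table, to -1.60 with median centring, and to between -1.26 and -1.15 without 1 array. The cholesterol median moved to -0.97 with median centring, the antigen receptor median to 0.90 with processed signals and in the series table and 0.26 with median centring, and the class II median to 0.25 with median centring and 0.46 after subtraction of 0 h. Of the 1139 genes 1136 kept their sign with the mean of the probes of a gene, and 1129 of the 1132 measured after subtraction of 0 h. All 30 genes of the widest gaps kept their direction; 14 lost the call with processed signals. On the WT array the dim area limits what 16.6% of genes can show.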

Other observations

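Several genes outside the lists and the widest gaps were 2-fold apart in both pairs; they were chosen after their values were seen. Tnfsf14 (LIGHT), a ligand of the TNF family, read 0.07 in WT, 0.05 in TLR7 KO, 2.28 in TLR9 KO and 2.75 in TLR7 TLR9 KO, and Cd27, a costimulatory receptor of memory and activated cells, -0.11, -0.04, 2.03 and 2.08. The receptor tyrosine kinase Axl read 0.40, 0.61, 2.45 and 3.38, and Il4i1, a secreted amino acid oxidase, -0.44, -0.24, 1.53 and 1.82. All of these had limma adjusted p-values from 0.00256 to 0.0177. In the other direction the stress factor Atf3 read 2.97, 3.20, 0.53 and 0.36, the fucosyltransferase Fut8 2.85, 2.80, 0.59 and 0.21, and the epithelial claudin Cldn7 2.57, 2.52, 0.41 and -0.18. Their limma adjusted p-values ran from 0.00256 to 0.00642.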
